A study of Mus musculus with 24 samples.

Results

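The 10 genes described here were 5 secreted ligands of the transforming growth factor beta (TGF-beta) superfamily (Tgfb1, Tgfb2, Tgfb3, Bmp4 and Bmp7), the 4 inhibitors of DNA binding (Id1 to Id4) and the inhibitory SMAD Smad7. They were chosen by symbol, as ligands, direct targets and a feedback inhibitor of the pathway, from the 21965 genes in the count table. All 10 passed the filter on low counts, a sum of at least 10 reads, as did 17167 genes in all. The mice carried a Cre transgene active in oligodendrocytes (OLs) and the rpl22HA allele on a C57Bl/6 background, and had all received tamoxifen. Cre thereby put a hemagglutinin (HA) tag on the ribosomal protein RPL22 in OLs. The females were 10 to 12 weeks old per the labels and received a 50 kdyn contusion at thoracic level 9. Spinal cord was taken 2, 10 or 42 days post-injury (dpi), and naive mice had the same genotype and tamoxifen but no injury. No sham-operated group is among the libraries. The paper states that naive and dpi 42 cord was collected on the same day, 10 weeks after tamoxifen began. Naive mice thus match dpi 42 in age and time since tamoxifen, and at dpi 2 and dpi 10 these cannot be told apart from injury. From each lysate, all RNA (total RNA) and the RNA on HA-tagged ribosomes (the OL translatome) were sequenced, which made 8 groups of 3 libraries each. Each replicate was a pool of cord tissue from 2 mice, and 1 OL library and 1 total RNA library came from each of 12 pools. The transgene is also active in Schwann cells of the nerve roots, and 4 of 4 Schwann cell markers were enriched in OL libraries at each time after injury and 1 of 4 in naive pools.

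TGF-beta ligands are secreted in latent form, are released by integrins and proteases, and signal through receptor serine kinases to SMAD2 and SMAD3. Bone morphogenetic proteins (BMPs) act through SMAD1, SMAD5 and SMAD9. BMP signalling raises the Id genes, whose proteins lack a DNA-binding domain and hold E proteins such as TCF12 away from partners like OLIG2. SMAD7 is made in response to the pathway and blocks its receptors. In the oligodendrocyte lineage, ID2 and ID4 are known to hold precursors back from differentiation, BMP4 to turn precursors towards astrocytes, and SMAD7 to be needed for myelination. ID1 and ID3 are abundant in reactive astrocytes and vessels.

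Coordinates are those of the GRCm38 (mm10) annotation. Tgfb1 (ENSMUSG00000002603, 8 exons) lies on the plus strand of chromosome 7 at 25687002 to 25705077. Tgfb2 (ENSMUSG00000039239, 10 exons) is on the minus strand of chromosome 1 at 186622792 to 186705989, and Tgfb3 (ENSMUSG00000021253, 7 exons) on the minus strand of chromosome 12 at 86056745 to 86079041. Bmp4 (ENSMUSG00000021835, 4 exons) lies on the minus strand of chromosome 14 at 46383520 to 46390669, where 89 of its bases overlap Gm15217 on the opposite strand. Bmp7 (ENSMUSG00000008999, 7 exons) is on the minus strand of chromosome 2 at 172868012 to 172940321. Id1 (ENSMUSG00000042745, 1 merged exon) lies at 152736251 to 152737410 on the plus strand of chromosome 2 and Id2 (ENSMUSG00000020644, 3 exons) at 25093799 to 25097140 on the minus strand of chromosome 12. Id3 (ENSMUSG00000007872, 4 exons) lies at 136143497 to 136145755 on the plus strand of chromosome 4 and Id4 (ENSMUSG00000021379, 3 exons) at 48261228 to 48266026 on the plus strand of chromosome 13. Smad7 is ENSMUSG00000025880. Whether counting used the strand is not given in the sources used here, so reads in the stretch that Bmp4 shares with Gm15217 cannot be told apart. Exon numbers are of exons merged over all annotated transcripts.

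Promoter sequence from RefSeq (GRCm38.p6) was at hand for 6 of the 10 members, and the sequence upstream of 4 is shown because their levels moved differently: Tgfb1 rose at every time, Id4 rose late, and Id2 and Bmp4 did not pass the test in OLs. Capitals mark an E-box (CANNTG, the site of the basic helix-loop-helix factors that ID proteins hold back) and GGCGCC, a GC-rich SMAD1 and SMAD5 site known from Id promoters; both strands were searched, and the 2 motifs do not overlap in these stretches.
Tgfb1, chr7:25686752-25687001, plus strand: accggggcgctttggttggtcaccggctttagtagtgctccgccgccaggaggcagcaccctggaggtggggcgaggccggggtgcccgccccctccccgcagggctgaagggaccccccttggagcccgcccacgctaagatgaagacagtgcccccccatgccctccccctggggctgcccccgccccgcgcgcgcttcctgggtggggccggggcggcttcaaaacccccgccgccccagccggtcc
Bmp4, chr14:46390670-46390919, minus strand: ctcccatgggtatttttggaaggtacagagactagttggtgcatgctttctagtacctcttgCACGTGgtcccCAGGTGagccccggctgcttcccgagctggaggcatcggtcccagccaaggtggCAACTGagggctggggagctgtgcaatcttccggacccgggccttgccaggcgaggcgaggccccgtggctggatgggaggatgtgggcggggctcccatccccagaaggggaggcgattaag
Id2, chr12:25096254-25096342, minus strand: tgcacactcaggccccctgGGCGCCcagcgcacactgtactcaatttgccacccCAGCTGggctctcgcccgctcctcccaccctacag
Id4, chr13:48260866-48261115, plus strand: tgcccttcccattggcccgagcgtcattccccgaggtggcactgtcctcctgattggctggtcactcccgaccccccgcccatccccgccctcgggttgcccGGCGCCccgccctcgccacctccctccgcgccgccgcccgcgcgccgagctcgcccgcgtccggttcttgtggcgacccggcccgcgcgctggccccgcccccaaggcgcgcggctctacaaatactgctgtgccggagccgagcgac
Positions are counted from the RefSeq start of each gene. GGCGCC was present at position -231 from that of Id2 and at -148 from that of Id4. It was present in 9.59% of 32851 mouse promoter windows of 250 bases. An E-box was present at -196 for Id2 and at -188, -177 and -123 for Bmp4, and in 66.2% of all windows. Neither motif was found in the Tgfb1 stretch, which held the short SMAD3 and SMAD4 core GTCT (82.9% of windows) at -105. The Id2 stretch was cut to the 89 bases outside its own exons. It lies inside the gene coordinates given above, between annotated exons, and so is upstream of the RefSeq start only. The window of Id3 lay inside its exon and is not shown. A match is a description of the letters, and binding was not measured.

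The OL libraries held 29075211 to 32987841 counts and the total RNA libraries 25840127 to 29050061; the scarcest member, Tgfb1 in naive OLs, rested on 2 to 14 reads a library. Levels are given in CPM, the counts as a share of the library size after TMM scaling. The summed level of 8 OL markers was 99200 to 166000 CPM in OL libraries and 19700 to 28500 CPM in total RNA, and all 8 were enriched at each time. Markers of other cells were present as well. The sum of 8 microglia and macrophage markers in OL libraries was 18.5 to 26.4 CPM in naive samples, 73.9 to 93.4 at dpi 2, 213 to 243 at dpi 10 and 131 to 223 at dpi 42. The sum of 6 astrocyte markers ranged from 798 to 10900 CPM. In 5 OL libraries (naive replicate 3, dpi 2 replicate 3, dpi 10 replicate 2, dpi 42 replicates 1 and 2) the astrocyte sum was 4540 to 10900 CPM, against 798 to 2260 CPM in the other 7. Both libraries of dpi 2 pool 2 held 2414 to 2604 reads of 4 Y-linked genes, against at most 13 in each of the other 22, although all mice were labelled female. The label fields of 2 dpi 42 libraries, those of pool 1, disagreed with one another on their fraction. Their group was taken from the field that matches the count table, and their OL marker sums lay in the ranges above for the fraction so given. For the 10 members, results that rested on these libraries are given with and without them. Values of the other genes named below are given only with them. In bulk libraries, fewer cells of a type and less RNA per cell cannot be told apart.

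Per kilobase of exon, Smad7 was the most abundant member in naive OLs at 41.3 CPM per kb, followed by Id2 at 22.3, Tgfb3 at 11.8, Id4 at 11.2, Id3 at 3.97, Id1 at 3.13 and Tgfb2 at 2.03. Bmp7 stood at 0.708, Bmp4 at 0.284 and Tgfb1 at 0.0743 CPM per kb. The ranges of the 3 libraries overlapped between each gene and the next in this order, so no pair of neighbours was separated by more than its spread. Id3 led the order at dpi 42, with 53.3 CPM per kb and a range of 18.4 to 79.8 that took in that of Smad7 (45.5). In naive total RNA the order was led by Id2 at 40.7 and Id4 at 28.5 CPM per kb, with Smad7 at 9.08.

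**Figure D1:**
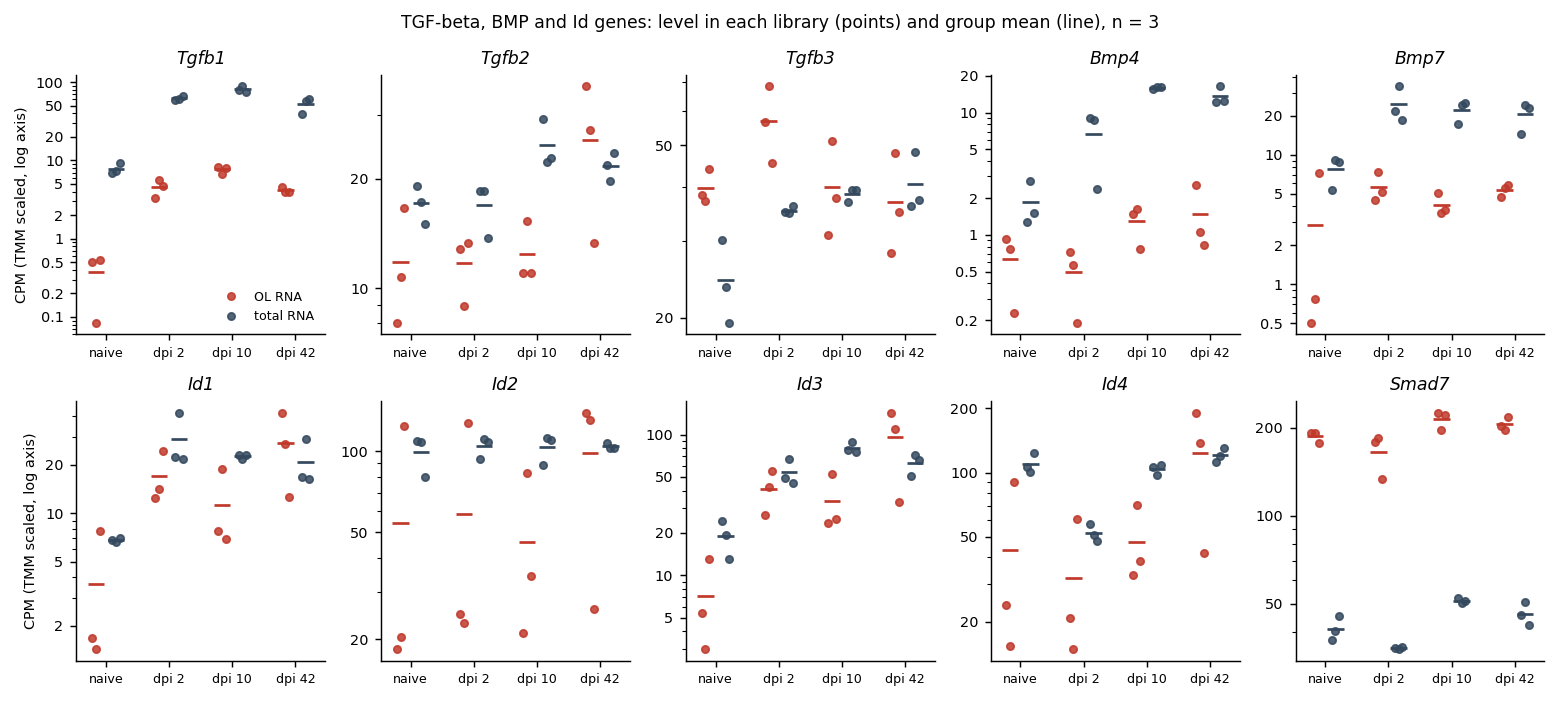
Level of each of the 10 genes in every library, in CPM on a log axis, by time after injury, with OL and total RNA libraries in separate colours and a bar at the mean of 3 libraries. Tgfb1 lies below 1 CPM in all naive OL libraries and between 3.33 and 8.12 CPM after injury, and Smad7 is higher in OL than in total RNA libraries at every time.

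In the OL translatome 3 members rose against naive at dpi 2 and at dpi 10 (Tgfb1, Id1 and Id3) and 5 at dpi 42 (those and Tgfb2 and Id4), and none fell. A member is said to rise or fall where the Benjamini-Hochberg adjusted p (q) of edgeR's quasi-likelihood test over 17167 genes was below 0.05. Of all genes tested, 18.4% were higher and 20% lower than naive at dpi 2, 9.62% higher and 8.59% lower at dpi 10, and 16.2% higher and 16.9% lower at dpi 42. The median log2 fold change of the members was 0.31, 0.36 and 1.16 at the 3 times, beside 0 over all genes. In total RNA 6 members rose at dpi 2, 7 at dpi 10 and 5 at dpi 42, and none fell. The background there was 16.4% higher and 20.8% lower at dpi 2, 13.9% and 18.2% at dpi 10, and 10.4% and 12.1% at dpi 42, and the members' medians were 1.02, 1.09 and 1.07 against -0.10, -0.10 and -0.08 for all genes. OL and total RNA libraries of a pool came from the same tissue, so the 2 sets of changes are not independent.

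**Figure D2:**
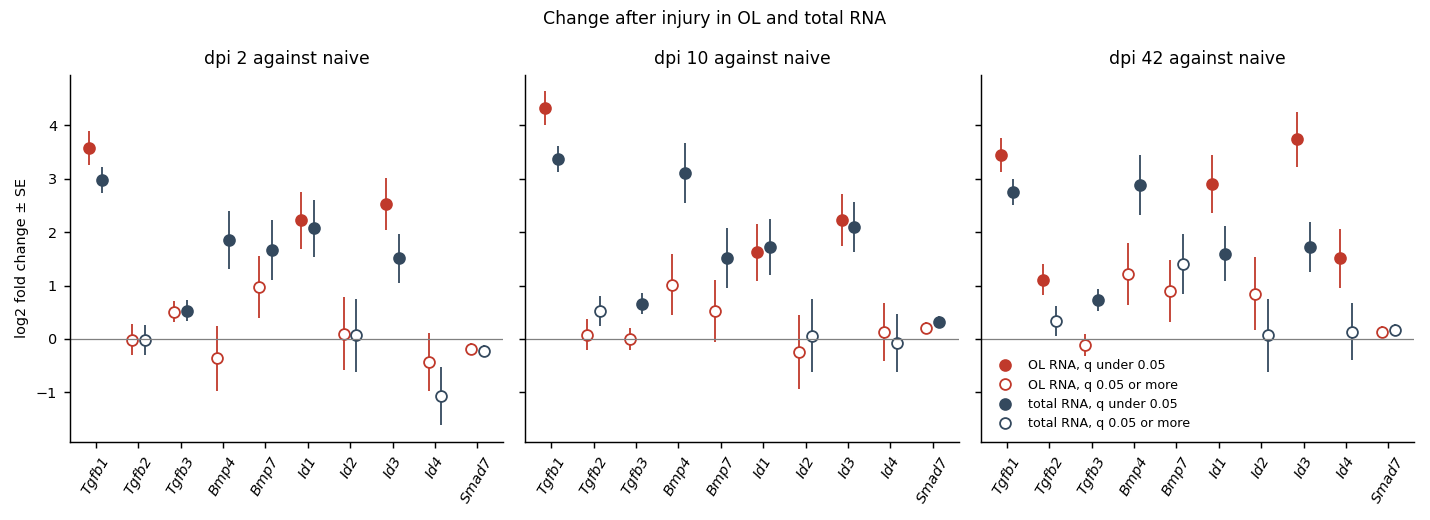
Log2 fold change against naive of each gene at dpi 2, 10 and 42, in OL and in total RNA libraries, with bars of 1 standard error and filled symbols where q was below 0.05. In OLs Tgfb1 stands at 3.57, 4.32 and 3.45 and is passed at dpi 42 by Id3 at 3.74, while Smad7 stays within 0.2 of 0 in OLs.

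Tgfb1, the TGF-beta isoform made chiefly by microglia and infiltrating macrophages after injury, had the largest OL change of the 10 genes at dpi 2 and dpi 10. Naive OL libraries held 0.504, 0.0846 and 0.535 CPM (12, 2 and 14 reads), and the dpi 2 libraries held 3.33, 5.59 and 4.71 CPM. At dpi 10 the values were 8.12, 6.73 and 8.11 CPM and at dpi 42 they were 4.58, 3.99 and 3.95 CPM. Every injured library lay above every naive one, and the dpi 10 libraries above all others. The OL level rose 11.9-fold at dpi 2 (log2 3.57 ± 0.32 SE, q = 2.38e-08, edgeR), 20-fold at dpi 10 (4.32 ± 0.32, q = 6.65e-09) and 10.9-fold at dpi 42 (3.45 ± 0.32, q = 1.58e-07). From dpi 2 to dpi 10 it rose further by 0.75 on the log2 scale (q = 0.0283), and from dpi 10 to dpi 42 it fell by 0.87 (q = 0.0326). The first of these calls was lost without dpi 2 replicate 1, dpi 10 replicate 1 or dpi 10 replicate 3, and the second without any of dpi 10 replicates 1 and 3 and dpi 42 replicates 1 and 2 (0.65 to 0.99 and -1.02 to -0.88). Both were lost with only the groups compared (0.72, q = 0.218, and -0.86, q = 0.173) and with an offset for gene length and GC content (0.57, q = 0.0959, and -0.85, q = 0.0583). In total RNA, where Tgfb1 was 6.89 to 9.19 CPM in naive cord and 74.9 to 88.3 CPM at dpi 10, it rose by 2.98, 3.37 and 2.75 on the log2 scale (q = 1.22e-08, 2.84e-09 and 7.47e-08). Tgfb1 was depleted from OL libraries at all times, with OL against total RNA at -4.40, -3.80, -3.40 and -3.63 in log2 in naive, dpi 2, dpi 10 and dpi 42 pools (q at most 2.41e-07). The microglia and macrophage markers moved with it, with 7, 7 and 6 of 8 higher in OLs at the 3 times. Their sum in total RNA was 213 to 253 CPM in naive cord and 3230 to 4450 CPM at dpi 10, and their part in the OL values of Tgfb1 was not tested. The change in OLs exceeded that in total RNA by 0.61, 1.00 and 0.77 in log2, which did not pass the test (q = 0.461, 0.217 and 0.362).

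Tgfb2, the isoform that is common in astrocytes and neurons, stayed near its naive OL level at dpi 2 and dpi 10 and rose at dpi 42. The OL values were 8.03, 10.7 and 16.6 CPM in naive samples, 12.8, 8.95 and 13.3 at dpi 2, 11, 15.3 and 11 at dpi 10, and 35.9, 27.3 and 13.3 at dpi 42. The rise at dpi 42 was 1.11 ± 0.29 on the log2 scale (q = 0.00508), but replicate 3 of dpi 42 lay inside the naive range, and the 2 high libraries were those with high astrocyte markers. Without the 5 OL libraries highest in astrocyte markers it was 0.49 (q = 0.219), and without the 2 libraries of conflicting labels 0.78 (q = 0.0627). Leaving out dpi 42 replicate 1 alone gave the lowest value, 0.73, with no call, and with only the groups compared it was 1.15 (q = 0.0997). In total RNA Tgfb2 was 13.7 to 29.2 CPM over all libraries and its changes of -0.02, 0.53 and 0.34 did not pass the test.

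Tgfb3 had the highest level per length of the 3 TGF-beta isoforms in OLs, with group means of 10.9 to 16.8 CPM per kb. Its OL values were 38.4, 37.1 and 44.1 CPM in naive samples and 56.5, 68.3 and 45.5 CPM at dpi 2. All dpi 2 libraries lay above all naive ones, with a change of 0.51 ± 0.20 in log2 that just missed the threshold (q = 0.0504) and passed it without the 5 libraries (0.66, q = 0.00436). With library sizes alone in place of TMM the dpi 2 change was 0.66 (q = 0.0135). At dpi 10 (31.0, 51.1 and 37.8 CPM) and dpi 42 (28.2, 47.9 and 35.0 CPM) the OL values overlapped the naive ones, with changes of 0.00 and -0.11. In total RNA Tgfb3 rose from 19.5 to 30.2 CPM in naive cord to 34.8 to 48.1 CPM after injury, by 0.53, 0.66 and 0.73 in log2 (q = 0.0428, 0.0151 and 0.0116). The dpi 2 call was lost without dpi 2 pool 2 (q = 0.0707), without any dpi 2 library and without total naive replicate 2 or 3. The dpi 10 call was lost without total naive replicate 2 or 3, and the dpi 42 call without total naive replicate 3 or dpi 42 replicate 2. With the length and GC offset all 3 calls were lost, at 0.34 (q = 0.215), 0.49 (q = 0.0741) and 0.52 (q = 0.0794).

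Bmp4, which OL precursors and perivascular cells make, was scarce in OLs. Naive OL libraries held 22, 18 and 6 reads (0.924, 0.761 and 0.229 CPM), the dpi 2 libraries 19, 14 and 5, the dpi 10 libraries 38, 43 and 20 and the dpi 42 libraries 73, 28 and 21. Each injured OL group overlapped the naive one and no change passed the test, with log2 values of -0.36 ± 0.61, 1.02 ± 0.58 and 1.21 ± 0.58 (q = 0.708, 0.255 and 0.117). In total RNA Bmp4 rose at all 3 times. Its level went from 1.28, 2.74 and 1.52 CPM to 8.99, 8.64 and 2.36 CPM at dpi 2, 15.6, 16.1 and 16.1 CPM at dpi 10 and 12.1, 16.4 and 12.4 CPM at dpi 42, with log2 changes of 1.85 ± 0.54, 3.11 ± 0.56 and 2.88 ± 0.56 (q = 0.00962, 0.000199 and 0.000701). Replicate 3 of dpi 2 lay inside the naive range and every dpi 10 and dpi 42 library above it, and the dpi 2 call was lost without total naive replicate 1 (q = 0.051). The change in OLs less that in total RNA was -2.12, -2.07 and -1.75 in log2, which missed the threshold (q = 0.064, 0.0872 and 0.147). Without the pools of the 5 libraries the differences were -2.54 and -2.70 at dpi 2 and dpi 10 (q = 0.0351 and 0.0391). At dpi 42, where 1 pool was left, the difference was -2.73.

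Bmp7, a BMP of the meninges and choroid plexus that drives astrocyte differentiation, depended on 1 naive library. OL naive replicates 1 and 2 held 0.504 and 0.761 CPM (12 and 18 reads) and replicate 3 held 7.27 CPM (190 reads), a value above those of all 9 injured libraries but 1. After injury the OL values were 4.46, 7.33 and 5.16 CPM at dpi 2, 5.05, 3.54 and 3.73 at dpi 10, and 4.72, 5.49 and 5.79 at dpi 42. With all libraries the changes were 0.98 ± 0.58, 0.52 and 0.89 in log2 and did not pass the test (q = 0.197, 0.613 and 0.254). Without OL naive replicate 3 they were 3.08, 2.69 and 3.01, called at each time, and without the 5 libraries, of which it is 1, they were 3.14, 2.79 and 3.17 (q = 8.15e-06, 9.54e-05 and 0.000107). In total RNA Bmp7 rose at dpi 2 by 1.67 ± 0.56 (q = 0.023) and at dpi 10 by 1.52 (q = 0.0421), from 5.34, 9.06 and 8.78 CPM to 21.6, 33.7 and 18.5 and to 17.1, 24.4 and 25.1 CPM; at dpi 42 it was 1.41 (q = 0.0763). All injured total RNA libraries lay above all naive ones, and the dpi 2 call was lost without dpi 2 pool 2 (1.37, q = 0.0987) or total naive replicate 1. The dpi 10 call was lost without any naive library and without dpi 10 replicate 2 or 3, with values of 1.31 to 1.68, and with the length and GC offset (1.36, q = 0.0547).

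Id1 and Id3, the Id genes of vessels and reactive astrocytes, rose in the OL translatome at all 3 times, Id4 rose at dpi 42, and Id2 did not pass the test. Id1 was 1.68, 1.44 and 7.76 CPM in naive OL libraries, 12.4, 14.1 and 24.4 at dpi 2, 7.73, 18.9 and 6.97 at dpi 10, and 42.1, 27.1 and 12.7 at dpi 42. The dpi 2 and dpi 42 libraries all lay above the naive ones, and at dpi 10 the lower 2 lay just under naive replicate 3. Id1 rose by 2.22 ± 0.54 (q = 0.0026), 1.62 ± 0.54 (q = 0.0403) and 2.90 ± 0.55 (q = 0.000381) on the log2 scale. The dpi 10 call was lost without naive replicate 1, naive replicate 2 or dpi 10 replicate 2, with values from 1.01 to 2.84 over the libraries left out, and with an offset for gene length and GC content (1.04, q = 0.121). With only the groups compared, the dpi 2 and dpi 10 values were 2.25 (q = 0.0527) and 1.63 (q = 0.186).

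Id3 was 5.38, 3.00 and 13 CPM in naive OL libraries, 26.9, 42.2 and 54.9 at dpi 2, 23.5, 52.1 and 25.3 at dpi 10, and 143, 110 and 33.0 at dpi 42. All 9 injured libraries lay above the 3 naive ones. Id3 rose by 2.53 ± 0.49, 2.23 ± 0.48 and 3.74 ± 0.51 on the log2 scale (q = 0.000286, 0.00254 and 1.18e-05). In total RNA both genes rose as well: Id1 by 2.07 ± 0.53, 1.72 and 1.60 (q = 0.00365, 0.0149 and 0.0314) and Id3 by 1.51 ± 0.46, 2.09 and 1.73 (q = 0.0133, 0.00156 and 0.00965). The total RNA libraries went from 6.64 to 7.07 CPM of Id1 in naive cord to 16.4 to 42.2 CPM after injury, and from 13.1 to 24.2 CPM of Id3 to 45.3 to 88.9 CPM, with no overlap. Without dpi 2 pool 2 the Id3 value at dpi 2 was 1.32 (q = 0.0603), and without total naive replicate 3 its dpi 2 and dpi 42 calls were lost. The Id1 call at dpi 42 was lost without any naive library or dpi 42 replicate 2 (1.28 to 1.74) and with the length and GC offset (1.10, q = 0.0889).

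Id2 and Id4, which are made by OL precursors, astrocytes and neurons, spread widely between replicates of a group. Id2 was 18.4, 20.3 and 124 CPM in naive OL libraries, 24.8, 23 and 127 at dpi 2, 21.1, 82.9 and 34.3 at dpi 10, and 139, 130 and 25.8 at dpi 42. Its log2 changes were 0.10 ± 0.69, -0.24 and 0.85, with q from 0.376 to 0.986. Id4 was 24, 15.4 and 90.0 CPM in naive OL libraries, 20.8, 14.9 and 60.6 at dpi 2, 33.0, 70.4 and 38.6 at dpi 10, and 191, 137 and 42.2 at dpi 42. Both genes had 1 high library in each of the first 3 groups and 1 low library at dpi 42, so that their ranges overlapped at all times. The rise of Id4 at dpi 42, 1.51 ± 0.55 (q = 0.0395), lost its call without the 2 libraries of conflicting labels (1.05, q = 0.221). It also lost it without naive replicate 1 or 2 or dpi 42 replicate 1 or 2, with values from 0.99 to 2.57 over the libraries left out, with only the groups compared (1.53, q = 0.209) and with a total RNA library as the TMM reference (1.39, q = 0.0513). In total RNA Id2 stayed between 80.3 and 112 CPM, with changes of at most 0.07. Id4 was 101 to 123 CPM in naive total RNA and 47.8 to 57.6 CPM at dpi 2, groups that do not overlap. The change of -1.07 ± 0.54 (q = 0.132) did not pass in the fit whose spread was shared over all 8 groups. It was -0.96 ± 0.11 (q = 2.12e-05) with only those 2 groups and -0.93 (q = 1.79e-05) without the 5 OL libraries.

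The high Id libraries were the libraries high in astrocyte markers, and OL precursor markers were also high in them. At each of the 4 times, the OL library with the highest sum of 6 astrocyte markers was also the one with the highest Id1, Id2, Id3 and Id4, and the highest Tgfb2. The astrocyte sum in those 5 libraries was 4540 CPM in naive replicate 3, 6650 in dpi 2 replicate 3, 5320 in dpi 10 replicate 2, and 10900 and 8680 in dpi 42 replicates 1 and 2; in total RNA it was 2290 to 6500 CPM. The summed level of 5 OL precursor markers was also highest in these libraries within each time. It was 135 CPM in naive replicate 3 against 37.2 and 29.4 in the others. At dpi 2 it was 94.5 CPM in replicate 3 against 40.1 and 24.8, and at dpi 10 75 in replicate 2 against 40.1 and 50.5. At dpi 42 it was 65.4 and 59.3 CPM in replicates 1 and 2 against 43. Against naive, 0, 0 and 1 of the 6 astrocyte markers rose in OLs and 1, 0 and 0 fell. Without the 5 libraries, which left 2, 2, 2 and 1 OL libraries at the 4 times, Id1 rose by 3.02, 2.23 and 3.01 (q = 5.75e-07, 5.92e-05 and 1.06e-05) and Id3 by 2.97, 2.54 and 2.96. Within the 7 libraries left, the astrocyte sum was itself lower in naive samples (992 and 798 CPM) than at dpi 10 (1690 and 2120) and dpi 42 (1670), and was 2260 and 823 CPM at dpi 2. Id4 then rose at dpi 10 by 0.86 (q = 0.00147) and stood at 1.08 at dpi 42, where 1 OL library was left. Id2 still did not pass at dpi 2 and dpi 10 (0.24 and 0.52) and stood at 0.40 at dpi 42. At dpi 2 and at dpi 10, 5 members were called, all higher. Of all 17167 genes, 3170 were then higher and 4183 lower at dpi 2, and 2173 higher and 1933 lower at dpi 10. The lone dpi 42 library left was assumed to vary as the other groups do. The part of astrocyte RNA in the levels of the Id genes was not tested beyond this, and that of OL precursor RNA was not tested.

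**Figure D3:**
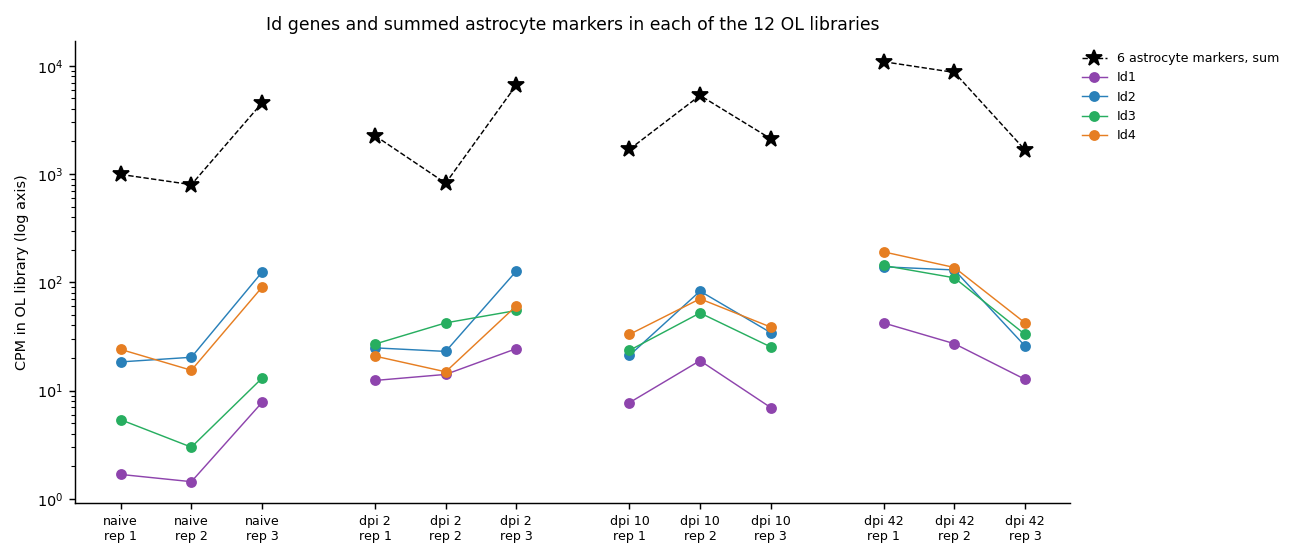
Level of Id1, Id2, Id3 and Id4 in each of the 12 OL libraries, in CPM on a log axis, with a colour for each gene. Libraries are ordered by time and replicate. Black stars on the same axis give the summed level of 6 astrocyte markers in the same library. The 5 libraries with sums of 4540 to 10900 CPM hold the highest Id values of their groups. The other 7 have sums of 798 to 2260 CPM.

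Smad7, the inhibitory SMAD, was abundant in the OL translatome and moved little. Its OL values were 191, 192 and 177 CPM in naive samples, 179, 184 and 133 at dpi 2, 225, 196 and 221 at dpi 10, and 202, 197 and 218 at dpi 42. The changes against naive were -0.18 ± 0.11, 0.20 and 0.14 in log2 and did not pass the test (q = 0.205, 0.217 and 0.337). All dpi 10 and dpi 42 libraries nevertheless lay above all naive ones. With library sizes alone in place of TMM, Smad7 was called higher at dpi 10 (0.31, q = 0.0256) and dpi 42 (0.28, q = 0.0277). Between dpi 2 and dpi 10 it rose by 0.37 (q = 0.0133), a call lost with the length and GC offset (0.16, q = 0.506) and with only the groups compared (0.34, q = 0.162). In total RNA it was 37.5, 40.2 and 45.5 CPM in naive cord, 35.4, 35.0 and 35.6 at dpi 2, 52.2, 50.4 and 51.1 at dpi 10, and 45.6, 50.6 and 42.4 at dpi 42. It rose there at dpi 10 by 0.32 ± 0.11 (q = 0.0253), a call lost without naive replicate 1 or 2 or any dpi 10 library, and from dpi 2 to dpi 10 by 0.54 (q = 0.00246). With the length and GC offset these were 0.21 (q = 0.289) and 0.44 (q = 0.0848). Among the members Smad7 had the smallest standard errors.

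Between injured times, 2 members changed in OLs from dpi 2 to dpi 10 (Tgfb1 and Smad7), 2 from dpi 10 to dpi 42 (Tgfb1 and Tgfb2) and 4 from dpi 2 to dpi 42 (Tgfb2, Tgfb3, Id4 and Smad7), beside 22.3%, 7.18% and 17.6% of all genes. From dpi 10 to dpi 42 Tgfb2 rose by 1.04 (q = 0.0332). From dpi 2 to dpi 42 Tgfb2 rose by 1.12 (q = 0.00964), Id4 by 1.94 (q = 0.0197) and Smad7 by 0.32 (q = 0.0425), and Tgfb3 fell by 0.62 (q = 0.0383). All 4 of these dpi 2 to dpi 42 calls were lost without the 2 dpi 42 libraries of conflicting labels and without OL dpi 42 replicate 1, and those of Tgfb2, Tgfb3 and Id4 without dpi 2 pool 2. Those of Tgfb3 and Id4 were also lost without OL dpi 2 replicate 1 or 2, that of Tgfb3 without dpi 42 replicate 3, and that of Smad7 without OL dpi 2 replicate 3 or any dpi 42 library. With the length and GC offset the dpi 2 to dpi 42 value of Smad7 was 0.10 (q = 0.728), and with only the groups compared none of the 4 passed (q = 0.103 to 0.364). The dpi 10 to dpi 42 call of Tgfb2 was lost without dpi 10 replicate 1 or 3 or dpi 42 replicate 1 or 2 (0.66 to 1.27) and with only the groups compared (1.05, q = 0.133). In total RNA the members called were 1 (Smad7), 0 and 1 (Smad7, 0.39, q = 0.0221), beside 7.84%, 0.262% and 10.8% of all genes; from dpi 10 to dpi 42, where none was called by edgeR, 1 member had an unadjusted p below 0.05 and DESeq2 called 1. The dpi 2 to dpi 42 call of Smad7 in total RNA was lost without any dpi 2 library or dpi 42 replicate 2, and with the length and GC offset it was 0.23 (q = 0.398).

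Set against total RNA of the same pool, Smad7 was enriched in OLs at all times, Tgfb1, Bmp4 and Bmp7 were depleted at all times, and of the Id genes Id3 and Id4 were depleted in the naive cord and none at dpi 42. The log2 OL enrichment of Smad7 was 2.19 ± 0.12, 2.21, 2.06 and 2.16 in naive, dpi 2, dpi 10 and dpi 42 pools (q at most 1.36e-08). Bmp4 stood at -1.61, -3.73, -3.68 and -3.36 (q = 0.0137, 4.35e-05, 3.01e-05 and 6.68e-05) and Bmp7 at -2.28, -2.11, -2.43 and -1.92 (q = 0.00286, 0.00223, 0.000902 and 0.00394). Tgfb3 was enriched in naive and dpi 2 pools, by 0.73 (q = 0.00316) and 0.67 (q = 0.00586), and stood at 0.02 and -0.15 later. Tgfb2 was depleted at dpi 10 (-1, q = 0.0197, a call lost without dpi 10 pool 1 or 3). With library sizes alone in place of TMM, Tgfb3 stood at 0.21 (q = 0.34), 0.10 (q = 0.662), -0.56 (q = 0.0181) and -0.66 (q = 0.00764) at the 4 times, so both calls were lost and it was depleted at dpi 10 and dpi 42. The dpi 2 call of Tgfb3 was also lost without dpi 2 pool 2 (0.51, q = 0.0638), and the naive call of Bmp4 without naive pool 2 or 3 (-2.22 to -1.16). With only the naive libraries in the fit, Bmp4, Bmp7 and Id3 did not pass (q = 0.094, 0.0743 and 0.0848). Id3 was depleted in naive and dpi 10 pools (-1.59, q = 0.021, and -1.35, q = 0.0306) and Id4 in naive pools (-1.77, q = 0.0133). The naive calls of both were lost without naive pool 1 or 2, and that of Id3 at dpi 10 without dpi 10 pool 1 or 3. Id1 and Id2 did not pass at any time, with values from -1.51 to 0.28. With library sizes alone both were called depleted in naive, dpi 2 and dpi 10 pools. Id1 then stood at -1.82, -1.33 and -1.74 (q = 0.0154, 0.046 and 0.0136) and Id2 at -2.03, -1.91 and -1.97 (q = 0.0414, 0.044 and 0.0326). In these fits, leaving out the 5 libraries removed their pools whole, total RNA library included, which left 1 pool at dpi 42. Id1, Id2, Id3 and Id4 were then depleted in naive, dpi 2 and dpi 10 pools. Over all 4 times Id2 stood at -2.51 to -1.88, Id3 at -2.43 to -0.72 and Id4 at -2.44 to -1.57. In the 1 pool left at dpi 42 Id1 stood at -0.37.

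**Figure D4:**
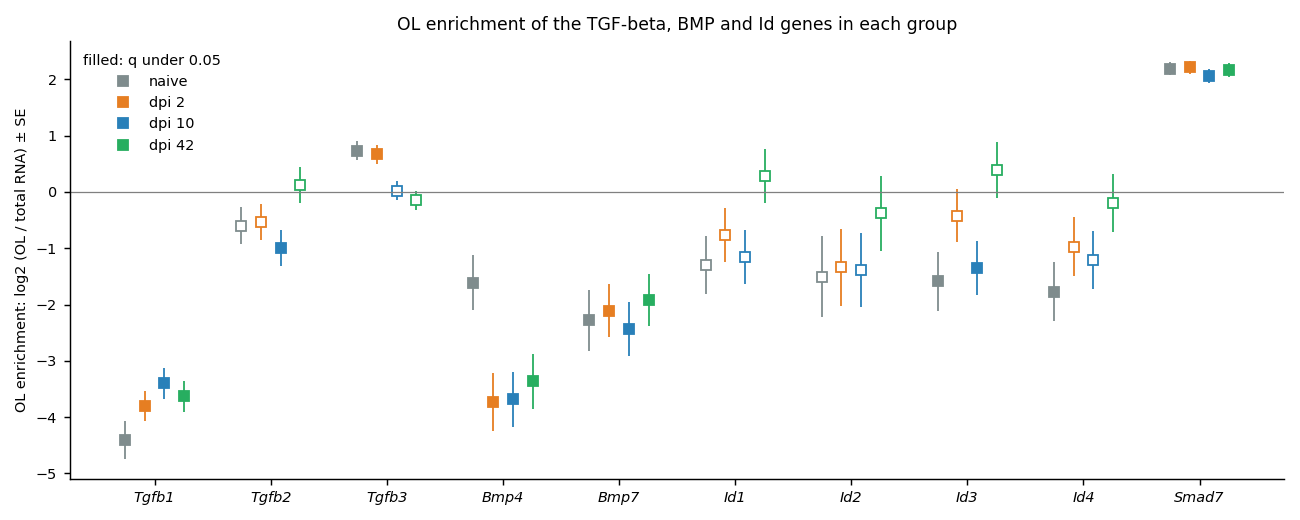
Log2 ratio of OL to total RNA level of each gene in naive, dpi 2, dpi 10 and dpi 42 pools, from the fit with tissue pool as a block, with bars of 1 standard error and filled symbols where q was below 0.05. Smad7 lies above 2 at every time and Tgfb1 below -3.

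In these 4 comparisons 2, 2, 1 and 1 members were called higher in OLs and 5, 3, 5 and 3 lower. Over all genes 24.4% were higher and 29.1% lower in naive pools, 24.3% and 26.9% at dpi 2, 24.7% and 26.4% at dpi 10, and 24.4% and 26.8% at dpi 42. The members' median enrichment was -1.55, -0.86, -1.28 and -0.17 in log2, beside -0.32, -0.23, -0.24 and -0.24 over all genes. The difference between the change in OLs and that in total RNA was called for 0, 0 and 1 members at dpi 2, 10 and 42, beside 13.3%, 7.63% and 7.85% of genes; 1, 3 and 4 members had an unadjusted p below 0.05 and DESeq2 called 1, 1 and 2. The call was Tgfb3 at dpi 42, with -0.88 ± 0.24 (q = 0.0465): it rose in total RNA and not in OLs. Without the pool block it was -0.84 (q = 0.075), without the 2 libraries of conflicting labels -0.78 (q = 0.128) and without the 5 libraries -0.58 (q = 0.205). Leaving out naive pool 2 or 3 or any dpi 42 pool also ended the call, with values of -1.07 to -0.65. For Id3 the differences were 1.17, 0.24 and 1.98 and passed at no time (q = 0.351, 0.979 and 0.122). Leaving out the pools of the 5 libraries was a choice made after seeing the data, and it left 1 pool at dpi 42. The Id3 differences were then 1.71, 0.78 and 1.43 (q = 0.000415 at dpi 2 and 0.0453 at dpi 10). For Id4 the differences were 0.79, 0.55 and 1.57, and without those pools 0.87, 0.85 and 0.82 (q = 0.0117 at dpi 2 and 0.0195 at dpi 10).

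A list of 116 other genes of the 2 pathways, of which 113 were tested, gave 33 higher and 19 lower in OLs at dpi 2, 27 and 14 at dpi 10, and 30 and 18 at dpi 42, with medians of 0.00, 0.03 and 0.23 in log2 beside 0 over all genes. The shares of all genes at these times, given above for the members, were 18.4%, 9.62% and 16.2% higher and 20%, 8.59% and 16.9% lower, and the counts of the classes that follow stand beside the same shares. In total RNA 35 were higher and 10 lower, then 34 and 7, and 34 and 7, beside 16.4%, 13.9% and 10.4% of all genes higher and 20.8%, 18.2% and 12.1% lower. The medians in total RNA were 0.22, 0.38 and 0.12, beside -0.10, -0.10 and -0.08 over all genes. Genes with at most 3 reads in every library of a group were also set to the bound that 3 reads give. Where both groups compared were that low, the change was set to 0. The medians were then 0.02, 0.08 and 0.15 in OLs and 0.23, 0.38 and 0.21 in total RNA. Log2 changes given for single genes of the list passed the test at each time unless a q or a time says otherwise. Of 15 target genes of the pathway 8, 7 and 8 rose in OLs and none fell. Ccn2, a matricellular protein, rose by 5.71, 4.15 and 4.08, and Col1a1, a fibrillar collagen that is also a fibroblast marker, by 3.29, 5.80 and 3.72. All 5 fibroblast markers rose in OLs at each time, from a sum of 47.9 to 83.4 CPM to 201 to 267, 522 to 605 and 205 to 268 CPM, and their part in these values was not tested. In total RNA Ccn2 went from 8.97 to 87.9, 47.4 and 44.8 CPM and Col1a1 from 8.54 to 154, 838 and 217 CPM.

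Of 15 genes that store or release latent TGF-beta, 6, 8 and 5 rose in OLs and 1, 2 and 2 fell. Thbs1, an activator of latent TGF-beta, went from 0.27 to 7.05, 2.75 and 3.12 CPM (4.68, 3.32 and 3.5), and Dcn, a proteoglycan that binds it, rose by 4.57, 5.35 and 4.52. Itgb8, the integrin subunit that releases it and that OLs make in quantity, fell from 186 to 87.3, 114 and 70.8 CPM (-1.09, -0.70 and -1.39). In total RNA Itgb8 went from 156 to 102, 105 and 85 CPM. Of 18 receptors 5, 3 and 5 rose and 2 fell at each time. Tgfbr2, the type II TGF-beta receptor, went from 1.79 to 4.72, 11.6 and 11.2 CPM (1.38, 2.67 and 2.62), and Eng, a co-receptor of vessels, rose by 1.35 to 1.5. These genes were higher in total RNA: Tgfbr2 was 19.2 CPM there in naive cord and 67.6, 133 and 93.4 CPM after injury, Dcn 17.2 and 181, 198 and 138 CPM, and Thbs1 5.35 and 85.9, 40.8 and 23.8 CPM. Eng in total RNA went from 20 to 59, 38.9 and 27.4 CPM, with no call at dpi 42 (q = 0.2). The microglia, macrophage and fibroblast markers whose sums are given above rose in OLs at the same times, and their part in the OL values of these genes was not tested. Acvr2a, an activin receptor, fell at dpi 42 from 9.22 ± 0.545 to 3.87 ± 1.32 CPM (-1.25, q = 0.000393), and in total RNA it went from 16.4 to 9.71 CPM. Of 19 other ligands 4, 2 and 3 rose and 2, 1 and 2 fell. Gdf15, a stress-induced ligand, was at 0 in all 3 naive OL libraries and at 3.33 ± 2.05, 1.19 ± 0.536 and 1.56 ± 0.502 CPM (SD, n = 3) after injury. In total RNA Gdf15 went from 0 to 5.15, 5.36 and 1.35 CPM. Gdf11, a relative of myostatin, rose at dpi 2 and dpi 42 by 1.41 and 1.79, with 0.75 at dpi 10 (q = 0.232). Its OL libraries held 5.46 to 17.8 CPM in naive samples and 12.2 to 50.1 CPM at dpi 42, ranges that overlap. In total RNA Gdf11 went from 50.1 to 46.9, 46.1 and 54.6 CPM. Bmp2 fell from 9.88 to 4.45, 4.12 and 4.88 CPM (-1.15, -1.26 and -1.02), and in total RNA it went from 6.63 to 3.38, 4.62 and 4.51 CPM.

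Among 16 secreted antagonists 3 rose at each time and 2, 1 and 1 fell, and Fstl3, which binds activins, rose from 2.16 to 11.7, 8.35 and 8.49 CPM (2.43, 1.95 and 1.97). Sostdc1, a BMP and WNT antagonist, rose by 2.66, 3.87 and 3.29 from naive libraries of 0 to 4.7 CPM. Fst, follistatin, rose at dpi 10, from at most 0.153 CPM to 2.59 to 2.89 CPM (5.28, q = 0.0133). Of the 8 SMADs and SMAD anchors 1, 0 and 0 rose and 4, 3 and 3 fell. Smad3 rose at dpi 2 by 1.13 (q = 0.0103), from naive libraries of 9.45 to 39.1 CPM to 37.2 to 54.6 CPM, ranges that overlap. Zfyve16, an endosomal SMAD anchor, stood at -1.31, -0.69 and -1.24, with no call at dpi 10 (q = 0.0533). Of 11 intracellular inhibitors 3, 3 and 4 rose and 4, 3 and 5 fell. Tgif2, a SMAD corepressor, rose by 3.19, 1.95 and 2.51, Pmepa1, which sequesters SMADs, by 1.67, 1.17 and 0.92, and Tob1, an antagonist of BMP SMADs, fell by 1.07, 0.57 and 0.53. Of 11 basic helix-loop-helix genes, the partners of ID proteins, 3, 1 and 2 rose and 4, 2 and 3 fell. Olig2, the OL lineage factor, fell from 398 to 172, 239 and 228 CPM (-1.21, -0.74 and -0.80), and Tcf12, the E protein, fell by 0.90, 0.78 and 1.34. Twist1 was at 0 in all naive OL libraries and at 0.293 ± 0.413, 0.665 ± 0.467 and 0.676 ± 0.147 CPM after injury. In total RNA Twist1 went from 0.365 to 5.01, 4.81 and 3.69 CPM and Fstl3 from 0.76 to 11.7, 6.27 and 5.12 CPM. Pmepa1 went there from 64.3 to 127, 148 and 110 CPM and Tob1 from 45.1 to 29.2, 34.1 and 36.9 CPM. Tgif2 and Sostdc1 had higher means in OLs than in total RNA at each time. The part of other cells' RNA in the OL values of these genes was not tested. The change in OLs less that in total RNA was -1.18, -0.99 and -1.12 for Tcf12 (q = 0.000303, 0.00148 and 0.000931). For Olig2 it was -1.08 at dpi 2 (q = 0.00209), -0.31 at dpi 10 and -0.65 at dpi 42 (q = 0.0471).

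The genes most like each member were taken as those with the highest Pearson correlation of log2 CPM over the 24 libraries, among 13173 genes with a mean of at least 50 reads; the libraries share groups, pools and the contrast between OL and total RNA, so the values are descriptions. Tgfb1 was most like Vav1 (r = 0.986), Dcn (0.985) and C1qb (0.984), a complement gene of microglia. Tgfb2 was nearest to Nnat (0.909), Nxn and Mpv17, Tgfb3 to Cflar (0.803), Trim56 and Sertad3, Bmp4 to Slc26a7 (0.957) and Epsti1, and Bmp7 to Stat6 (0.948), Btg1 and Nrros. Id1 was nearest to Tmem176a (0.967), Pdpn and P4ha3, Id3 to Tmem176a (0.962), Id1 (0.951) and Prrx2, Id2 to Aldh1a1 (0.97), Itpkb and Msi1, and Id4 to Tmie (0.942), Cideb and Pth1r. Smad7 was nearest to Stmn4 (0.995), Tspan15 (0.99) and Pllp (0.99), a myelin gene.

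The choice of scaling moved the balance of calls over all genes. With library sizes alone the share of called genes that were higher was 61.6%, 70.8% and 62.3% for OLs against naive (47.9%, 52.8% and 49.1% with TMM), 63.8%, 62.5% and 65.4% for total RNA (44.0%, 43.3% and 46.2%), and 25.0%, 19.5%, 20.9% and 23.5% for OL enrichment (45.6%, 47.5%, 48.3% and 47.7%). The median enrichment of all genes then moved by -0.51, -0.57, -0.57 and -0.50 in log2. Under it Smad7 was still enriched, by 1.67, 1.64, 1.48 and 1.65, whereas Tgfb3 lost its 2 enrichment calls and was depleted at dpi 10 and dpi 42. With a total RNA library as the TMM reference the higher share of differential calls was 24.8%, 18.1% and 17.8% (56.3%, 58.9% and 55.3%), and the median of all genes moved by -0.23, -0.22 and -0.22. That reference put the higher share at 40.3% and 37.2% for OLs at dpi 10 and dpi 42 and at 56.1%, 60.2% and 64.7% for total RNA. With an offset for gene length and GC content it was 36% and 36.5% for OLs at dpi 10 and dpi 42, 58.4% to 59.4% for enrichment, and 45.4%, 32.9% and 34.9% for differential enrichment.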

How the data were processed

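Spinal cord from naive mice and from mice 2, 10 and 42 days after contusion was pooled from 2 mice per replicate, and polysomes were sampled before (total RNA) and after HA immunoprecipitation (OL translatome), giving 24 libraries. The authors aligned reads with STAR to mm10 (GRCm38.p6) and counted them per gene with HTSeq 0.10.0 after FastQC 0.10.1, and the deposited values are raw read counts of 21965 genes, with no normalization. Builds and tools are those of the submitters' processing notes, and the strand setting is not given in the sources used here. Columns were matched to samples by the description labels. For 2 dpi 42 libraries, title and source name conflict with the description. The labels give 10 to 12 weeks of age, and the study's methods a younger age at injury.

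Genes with a count sum of at least 10 (17167) were tested with edgeR 4.0.16 in R 4.3.3, by TMM scaling (factors 0.742 to 0.899 in OL and 1.1 to 1.29 in total RNA libraries) and the quasi-likelihood test, with Benjamini-Hochberg adjustment in each of 19 comparisons. Changes over time used 8 group means; OL enrichment and its change with injury used the tissue pool as a block, as the study paired them. Column names give the pool. The correlation of deviations of the 2 libraries of a pool was 0.155 to 0.263 in naive, 0.176 to 0.191 in dpi 2 and 0.0559 to 0.131 in dpi 10 pools, and -0.0476 to 0.0206 at dpi 42, where the pairing rests on the names. Between libraries of different dpi 42 pools it was -0.0581 to 0.0422. The titles of OL replicate 1 and total RNA replicate 2 at dpi 42 give another sample number than their pool. Replicates differed by more than sampling noise (median chi-square of at least 2.51 per gene). The fits were tested on simulated data. The members and lists were chosen with earlier results of these data known. Named pathway genes are, per class, the 3 with the smallest p over the OL changes against naive, among those called with a log2 change past 1. Like genes are the 3 with the highest correlation. A few genes that these rules name are not reported here. Alternatives were DESeq2 1.42.0 and its size factors, library sizes alone, another TMM reference, other filters on low counts, a length and GC offset, the groups compared alone, the block added or removed, and libraries left out. Leaving out the 5 OL libraries highest in astrocyte markers was chosen after seeing the data. In the fits of enrichment and its change with injury, their pools were left out whole, which left 1 pool at dpi 42. Low counts limit precision in OLs for Bmp4, for Tgfb1 and for Bmp7 in naive replicates 1 and 2.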

Additional observations from a re-analysis of the deposited data

Results flagged for a closer look

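At dpi 42 Tgfb3 was the 1 member called for a different response to injury in the OL translatome and total RNA. The call came from a test of the difference itself. In that comparison 7.85% of all genes were called, a share from which 1 call among the members does not stand out. The change in OLs less that in total RNA was -0.88 ± 0.24 in log2 (q = 0.0465, edgeR with the tissue pool as a block): Tgfb3 rose by 0.73 in total RNA and stood at -0.11 in OLs. The call was lost without the block (-0.84, q = 0.075), with library sizes alone (-0.87, q = 0.0528), with only the groups compared (-0.86, q = 0.103), without the 2 dpi 42 libraries of conflicting labels (-0.78, q = 0.128) and without the 5 OL libraries highest in astrocyte markers (-0.58, q = 0.205). Leaving out naive pool 2 or 3 or any dpi 42 pool also ended the call. The total RNA rise was 0.52 (q = 0.0794) with an offset for gene length and GC content.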

How the results depend on the processing

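Of 3299 values of single members recomputed under alternatives, 2811 kept their direction and their side of the threshold, 197 changed sign with no call on either side, 156 lost a call, 133 gained one and 2 were called with the opposite sign: Id3 OL enrichment at dpi 42, -1.01 without the 5 OL libraries highest in astrocyte markers, and Tgfb3 OL enrichment at dpi 10, -0.56 with library sizes alone. The cause was not tested. The Id3 value of -1.01 rested on 1 pool, because whole pools were left out of that fit. The counts below are members called, with that of the report in brackets. The number of all 17167 genes called moved with the setting too, so a member count is not a result about the members alone. For enrichment at dpi 2, library sizes alone called 1876 genes higher and 7738 lower (4173 and 4615). In total RNA from dpi 2 to dpi 10, the groups compared alone called 1563 genes higher and 1854 lower (568 and 778).

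With DESeq2, 1 member was called for differential OL enrichment at dpi 2 (0), 1 at dpi 10 (0) and 2 at dpi 42 (1), and 1 in total RNA from dpi 10 to dpi 42 (0). The TMM reference in total RNA gave 1 and 1 for differential enrichment at dpi 2 and dpi 10 (0 and 0). Library sizes alone gave 8 and 10 for enrichment at dpi 2 and dpi 10 (5 and 6), 0 for differential enrichment at dpi 42 (1) and 0 in total RNA from dpi 2 to dpi 42 (1). The length and GC offset gave 0 and 1 in OLs from dpi 2 to dpi 10 and dpi 10 to dpi 42 (2 and 2), 0 and 0 in total RNA from dpi 2 to dpi 10 and to dpi 42 (1 and 1), and 4 and 3 in total RNA against naive at dpi 10 and dpi 42 (7 and 5).

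With only the groups compared, no member (0) was called between injured times in OLs (2, 2 and 4), 3 at dpi 42 against naive (5), 4 for naive enrichment (7), 0 for differential enrichment at dpi 42 (1), and 6 and 1 in total RNA from dpi 2 to dpi 10 and dpi 10 to dpi 42 (1 and 0). Without the 5 OL libraries there were 5 and 5 in OLs at dpi 2 and dpi 10 (3 and 3), 4, 0 and 2 between times (2, 2 and 4), 10 and 7 for enrichment at dpi 2 and dpi 42 (5 and 4), 3, 4 and 2 for differential enrichment (0, 0 and 1), and 3 and 2 in total RNA from dpi 2 to dpi 10 and to dpi 42 (1 and 1). Without dpi 2 pool 2 there were 1 in OLs from dpi 2 to dpi 42 (4), and 3 in total RNA at dpi 2 (6) and 0 from dpi 2 to dpi 42 (1). Without the 2 dpi 42 libraries of conflicting labels there were 3 in OLs at dpi 42 (5), 0 and 0 from dpi 10 and dpi 2 to dpi 42 (2 and 4), 1 and 0 for differential enrichment at dpi 2 and dpi 42 (0 and 1), and 0 in total RNA from dpi 2 to dpi 42 (1).

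Replicate numbers of different times share no animals. A replicate block on them gave 3, 1 and 3 members in OLs against naive (3, 3 and 5), 0, 0 and 0 between times (2, 2 and 4), and in total RNA 7, 8 and 9 against naive (6, 7 and 5) and 6, 1 and 3 between times (1, 0 and 1). In only 1 pair of groups, total RNA at dpi 2 and dpi 10, did every sample correlate best with its own number. With no replicate block for the pools, enrichment counts were 7, 5, 6 and 4 as before, and differential enrichment at dpi 42 had 0 (1).

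Leaving out 1 library or pool at a time gave, in OLs, 3 to 4, 2 to 4 and 3 to 7 members at the 3 times, 1 to 3 from dpi 2 to dpi 10, and 0 to 4 from dpi 10 and from dpi 2 to dpi 42. In total RNA it gave 3 to 5, 4 to 6 and 2 to 5 at the 3 times, 1 to 1 from dpi 2 to dpi 10, 0 to 0 from dpi 10 to dpi 42 and 0 to 1 from dpi 2 to dpi 42. Enrichment ranged from 4 to 9 in naive, 4 to 7 in dpi 2, 4 to 7 in dpi 10 and 4 to 4 in dpi 42 pools, and differential enrichment from 0 to 2, 0 to 0 and 0 to 3. Depth limited Bmp4, with 5 to 73 reads in OL libraries, Tgfb1 in naive OLs, and Bmp7 in OL naive replicates 1 and 2 (12 and 18 reads).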
